A study of Danio rerio with 6 samples.

Results

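Transcripts for the synthesis, binding, breakdown and reception of retinoic acid were examined in zebrafish embryo cells sorted as periderm and as non-periderm. The 10 genes, of 26190 in the data, were chosen by gene name: the synthesis enzymes *rdh10a* and *aldh1a2*, the binding proteins *crabp2a* and *crabp2b*, the breakdown enzymes *cyp26a1*, *cyp26b1* and *cyp26c1*, and the receptors *raraa*, *rarab* and *rarga*. RNA came from pooled embryos of the transgenic line *Tg(krt4:GFP)*, taken 11 h after fertilization when they had 4 somites, and the labels name no treatment. GFP in this line is under a regulatory element of *krt4*, a keratin gene, and marks the enveloping layer (EVL), the superficial epithelium also called periderm. Dissociated cells were sorted by fluorescence into GFP-positive cells, labelled periderm, and GFP-negative cells, labelled non-periderm, with 3 biological replicates of each. By this design the GFP-negative population is a mixture of the other tissues of the embryo. The split was not clean: markers of periderm and of other tissues were found in both populations, as given below.

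Retinoic acid is made from retinol, which retinol dehydrogenases oxidise to retinal and retinaldehyde dehydrogenases then oxidise to the acid. Cellular binding proteins carry it through the cytoplasm, Cyp26 enzymes of the cytochrome P450 class destroy it, and nuclear retinoic acid receptors (RARs), paired with retinoid X receptors (RXRs), switch target genes when it binds. In the early zebrafish embryo the trunk mesoderm is the best known source and the Cyp26 enzymes shape the distribution of the signal along the hindbrain and trunk.

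The labels were checked first. *krt4* measured 2384, 2315 and 2591 TPM (each transcript's reads relative to its length and to the whole library) in GFP-positive replicates 1, 2 and 3 and 545, 624 and 636 TPM in GFP-negative replicates 1, 2 and 3. All 11 EVL markers tested were higher in GFP-positive cells, and their summed TPM was 5379 to 5623 against 860 to 960. Transcripts known as markers of other tissues were also found in both populations. The 6 hatching gland markers tested summed to 6522 to 6773 TPM in GFP-positive and 876 to 879 in GFP-negative cells. They included *klf17* (81.0 against 30.6 TPM on average), which the study also names as needed for EVL differentiation. The 5 notochord and floor plate markers summed to 394 to 494 against 122 to 123 TPM. Neural plate markers went the other way, at 533 to 538 against 995 to 1017 TPM, with 7 of 8 higher in GFP-negative cells. Summed levels of presomitic and somitic mesoderm were 435 to 471 against 488 to 509 TPM, of hindbrain 186 to 209 against 227 to 236, of neural crest 43.0 to 46.2 against 63.6 to 71.2, of blood and endothelium 315 to 326 against 335 to 358, of basal epidermis 102 to 118 against 74.6 to 81.6, and of endoderm 42.9 to 47.9 against 38.2 to 40.1. Single genes did not all follow the sums. Of the presomitic and somitic genes tested, 3 of 9 were called higher and 4 lower in GFP-positive cells. For hindbrain these counts were 1 and 2 of 5, and for neural crest 1 and 3 of 4. For blood and endothelium they were 2 and 1 of 5, for basal epidermis 3 and 0 of 5, and for endoderm 2 and 0 of 4. Yolk syncytial layer markers were near 0 in both, at 1.87 to 4.78 TPM in sum. Library totals were 40584467 to 49679602 estimated counts.

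Transcripts of all 10 retinoic acid genes were detected in every library, with 445 to 8075 estimated counts per gene and library, and all 10 entered the test. Higher levels in GFP-negative cells were found for 8 genes, *cyp26a1* alone was higher in GFP-positive cells, and *crabp2a* did not pass. Genes were tested with edgeR's quasi-likelihood F test with Benjamini-Hochberg adjustment over 20944 genes, and called at an adjusted p below 0.05 with a mean above 1 TPM in the higher population. By that rule 49.0% of all genes tested were called, 24.1% higher in GFP-positive cells and 25.0% higher in GFP-negative cells. The median log2 fold change (GFP-positive over GFP-negative, here and below) was -0.26 over the 10 genes and 0.02 over all genes tested. The TPM of 8 of the 10 lay entirely below the GFP-negative range in GFP-positive cells, as for 34.3% of all genes tested, and that of 1 lay entirely above, as for 24.2%. Only *cyp26b1* was called with a difference of 2-fold or more, which 3.93% of all genes reached on the GFP-negative side and 8.45% on the GFP-positive side. Over all called genes the fold changes had a median size of 0.58 on the log2 scale, and 6 of the 9 called retinoic acid genes were below it. These are bulk libraries, in which fewer cells of a type and less RNA per cell cannot be told apart.

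**Figure D1:**
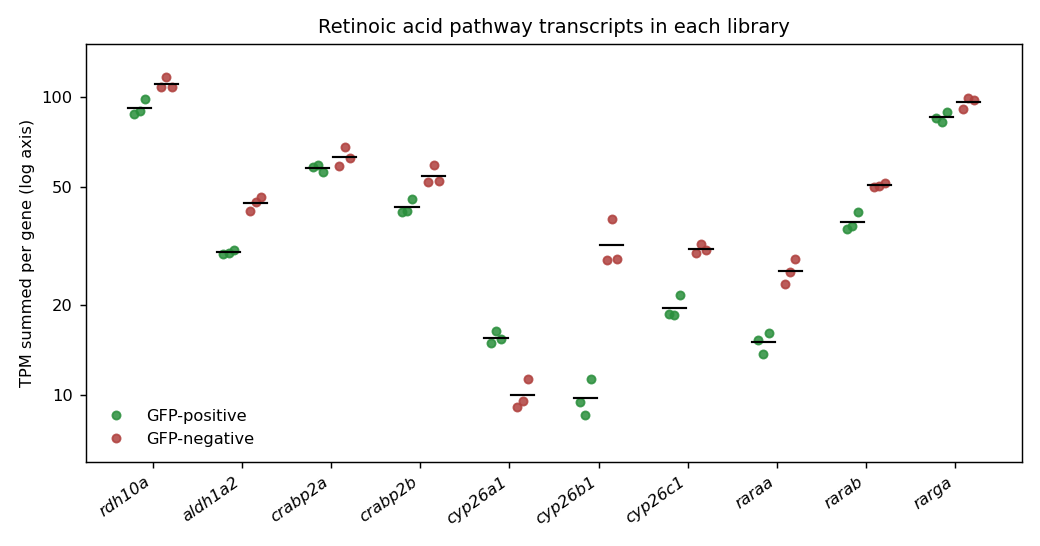
TPM of each of the 10 genes, summed over its transcripts, on a log axis, with 1 point per library (3 GFP-positive, green, and 3 GFP-negative, red) and a bar at the mean of each population. The green points lie below the red ones for 8 genes, above them for *cyp26a1* and among them for *crabp2a*.

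The synthesis enzymes were both lower in GFP-positive cells. *aldh1a2* (ENSDARG00000053493), which encodes the retinaldehyde dehydrogenase that makes most embryonic retinoic acid, measured 29.8, 29.9 and 30.7 TPM in GFP-positive replicates 1, 2 and 3 and 41.3, 44.5 and 46.0 TPM in GFP-negative replicates 1, 2 and 3. The 3 GFP-positive libraries lay within about 1 TPM of each other and well below every GFP-negative library. Its log2 fold change was -0.42 (SE 0.061, edgeR adjusted p = 4.03e-05), a 1.34-fold lower level.

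*rdh10a* (ENSDARG00000058730), a membrane-bound retinol dehydrogenase of the preceding step, was the most abundant of the 10 genes in both populations. It measured 87.2, 89.7 and 98.0 TPM in GFP-positive replicates and 107.7, 116.6 and 107.3 TPM in GFP-negative replicates 1, 2 and 3. The ranges did not overlap, but the highest GFP-positive library, replicate 3, came close to the lowest GFP-negative one. The log2 fold change of -0.13 (SE 0.052, edgeR adjusted p = 0.0442) was the smallest of those called among the 10 genes. Leaving out any library except GFP-positive replicate 3 ended the call, with fold changes of -0.15 to -0.12 over the 6 fits that leave out a library, and so did adding the replicate number as a block (edgeR adjusted p = 0.0913).

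Of the 2 binding proteins, which are close relatives, only *crabp2b* was called. *crabp2a* (ENSDARG00000073978) measured 57.9, 59.2 and 56.1 TPM in GFP-positive replicates 1, 2 and 3 and 58.4, 67.8 and 62.2 TPM in GFP-negative ones. Its lowest GFP-negative library lay between the GFP-positive values. The log2 fold change was 0.01 (SE 0.061, edgeR adjusted p = 0.873). It was near 0 and its sign was not stable: it was -0.12 with limma on log2(TPM + 1), and -0.018 to 0.063 with each library left out, in no case past the threshold.

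*crabp2b* (ENSDARG00000030449) measured 41.0, 41.5 and 45.4 TPM in GFP-positive replicates and 51.9, 59.1 and 52.0 TPM in GFP-negative replicates 1, 2 and 3. Every GFP-positive library was below every GFP-negative library. The log2 fold change was -0.23 (SE 0.057, edgeR adjusted p = 0.00374). As a share of the summed TPM of the 2 genes, *crabp2a* made up 57.5% ± 1.97 (SD, n = 3) in GFP-positive and 53.6% ± 0.770 (SD, n = 3) in GFP-negative cells.

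The 3 breakdown enzymes gave the widest spread of any group, from the largest decrease in GFP-positive cells to the only increase. *cyp26a1* (ENSDARG00000033999), the enzyme whose transcription is itself induced by retinoic acid, measured 15.0, 16.4 and 15.4 TPM in GFP-positive replicates 1, 2 and 3 and 9.13, 9.59 and 11.4 TPM in GFP-negative ones. All 3 GFP-positive libraries were above all 3 GFP-negative libraries. It was 1.68-fold higher there, a log2 fold change of 0.75 (SE 0.104, edgeR adjusted p = 3.10e-05), which stayed between 0.69 and 0.85 when each library was left out in turn. It had the fewest reads of the 10 genes, 842 to 959 estimated counts per GFP-positive library and 445 to 588 per GFP-negative library.

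*cyp26b1* (ENSDARG00000077121), which acts in the hindbrain and later in skeletal tissues, measured 9.49, 8.62 and 11.3 TPM in GFP-positive replicates and 28.4, 38.8 and 28.6 TPM in GFP-negative replicates 1, 2 and 3. The lowest GFP-negative library was more than 2-fold above the highest GFP-positive one, and GFP-negative replicate 2 stood above the others. The log2 fold change was -1.44 (SE 0.076, edgeR adjusted p = 1.45e-09), a 2.71-fold lower level in GFP-positive cells.

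*cyp26c1* (ENSDARG00000056029), the third enzyme of the family, measured 18.7, 18.6 and 21.6 TPM in GFP-positive replicates and 30.1, 32.1 and 30.6 TPM in GFP-negative replicates 1, 2 and 3. The populations were separated, and the GFP-negative libraries lay within about 2 TPM of each other. Its difference was -0.54 on the log2 scale (SE 0.060, edgeR adjusted p = 3.95e-06).

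Together the 3 *cyp26* genes summed to 43.2, 43.6 and 48.4 TPM in GFP-positive replicates 1, 2 and 3 and to 67.6, 80.5 and 70.7 TPM in GFP-negative ones. The sum was lower in every GFP-positive library, and the shares of *cyp26a1* and *cyp26b1* in it did not overlap between the populations. *cyp26a1* supplied 34.7% ± 2.81 (SD, n = 3) of the sum in GFP-positive and 13.8% ± 2.12 (SD, n = 3) in GFP-negative cells. *cyp26b1* supplied 21.7% ± 1.81 (SD, n = 3) against 43.6% ± 4.09 (SD, n = 3). The share of *cyp26c1* was 43.6% ± 1.05 (SD, n = 3) against 42.6% ± 2.42 (SD, n = 3), with overlapping libraries. Thus *cyp26a1* exceeded *cyp26b1* in each GFP-positive library, by 1.37- to 1.90-fold, whereas in the GFP-negative libraries it reached 0.247 to 0.397 of the *cyp26b1* level.

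**Figure D2:**
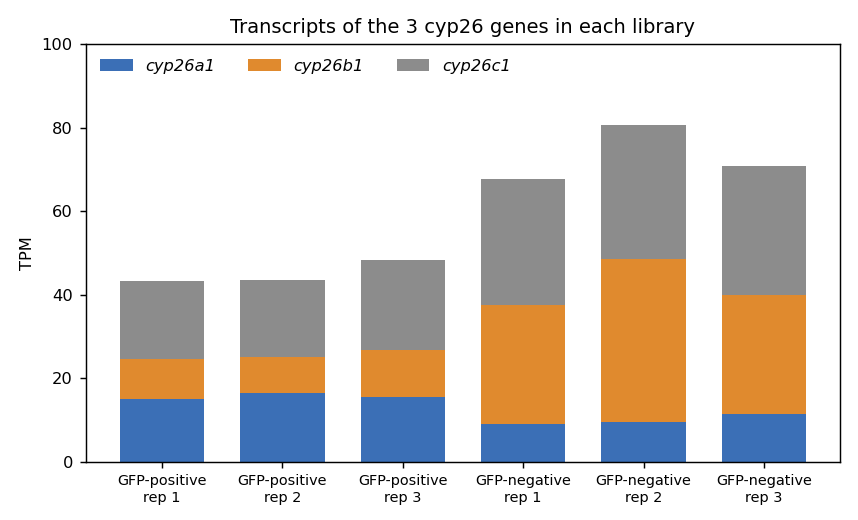
Stacked bars of the TPM of *cyp26a1*, *cyp26b1* and *cyp26c1* in each of the 6 libraries. The bars are shorter in GFP-positive cells (43.2 to 48.4 TPM) than in GFP-negative cells (67.6 to 80.5 TPM), while the blue *cyp26a1* segment is taller.

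Ratios of TPM within a library, 8 in all, were compared between the populations. The mean log2 ratio of *cyp26a1* to *cyp26b1* was 0.68 ± 0.24 (SD, n = 3) in GFP-positive and -1.66 ± 0.34 (SD, n = 3) in GFP-negative cells, a difference of 2.34. The difference for *cyp26a1* to *cyp26c1* was 1.3, and that for *cyp26b1* to *cyp26c1* was -1.04. On TMM-normalized counts they were 2.20, 1.29 and -0.91 in the same order. Among the receptors the differences were smaller, at -0.37 for *raraa* to *rarab*, -0.62 for *raraa* to *rarga* and -0.24 for *rarab* to *rarga*. On TMM-normalized counts these were -0.35, -0.46 and -0.11 in the same order. For *crabp2a* to *crabp2b* the difference was 0.23, and 0.24 on such counts. Within the *cyp26* genes, and within the receptors, the ratios are not independent, as each follows from the others. In all 7 of these ratios the libraries of the populations did not overlap. How often that holds for ratios of other gene pairs was not computed. The two-sided exact permutation p was 0.1 for each, the smallest that 3 against 3 libraries allow. After Benjamini-Hochberg adjustment over the 8 it was 0.114. With libraries paired by replicate number, an exact sign-flip test gave p = 0.25 for each of the 7. The ratio of *aldh1a2* to the *cyp26* sum, synthesis to breakdown at the level of transcripts, was 0.634 to 0.688 in GFP-positive and 0.553 to 0.650 in GFP-negative libraries. Those TPM ranges overlapped, with a difference of 0.15 on the log2 scale (two-sided exact permutation p = 0.2, adjusted p = 0.200). The difference was 0.085 without GFP-negative replicate 2. On TMM-normalized counts it was 0.22, and there the libraries of the populations did not overlap, so this ratio depended on the measure. The *cyp26* sum in TPM also includes a short *cyp26b1* transcript with few reads, given below.

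All 3 receptor genes were lower in GFP-positive cells, by 1.14- to 1.57-fold. *raraa* (ENSDARG00000056783), encoding a receptor of the alpha class, measured 15.4, 13.7 and 16.2 TPM in GFP-positive replicates 1, 2 and 3 and 23.6, 25.9 and 28.5 TPM in GFP-negative ones. The populations were well separated. The difference was -0.65 on the log2 scale (SE 0.085, edgeR adjusted p = 1.86e-05).

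*rarab* (ENSDARG00000034893), the duplicate of *raraa*, measured 36.1, 36.8 and 41.2 TPM in GFP-positive replicates and 49.7, 50.4 and 51.5 TPM in GFP-negative replicates 1, 2 and 3. The GFP-negative libraries lay within about 2 TPM of each other, and GFP-positive replicate 3 stood nearest to them. On the log2 scale the difference was -0.29 (SE 0.063, edgeR adjusted p = 0.00126).

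*rarga* (ENSDARG00000034117), encoding a receptor of the gamma class and the most abundant of the 3, measured 84.9, 82.5 and 88.5 TPM in GFP-positive replicates and 91.0, 99.0 and 97.5 TPM in GFP-negative replicates 1, 2 and 3. The ranges did not overlap, with GFP-positive replicate 3 close to GFP-negative replicate 1. On the log2 scale the difference was -0.19 (SE 0.057, edgeR adjusted p = 0.0130), and without GFP-positive replicate 2 it was -0.16 and not called (edgeR adjusted p = 0.0745). The 3 receptor genes summed to 138.4 ± 6.74 TPM (SD, n = 3) in GFP-positive and 172.3 ± 7.10 TPM (SD, n = 3) in GFP-negative cells. *rarga* made up 61.7% ± 0.862 of that sum against 55.6% ± 0.785, and *raraa* 10.9% ± 0.506 against 15.1% ± 0.881 (SD, n = 3 each).

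**Figure D3:**
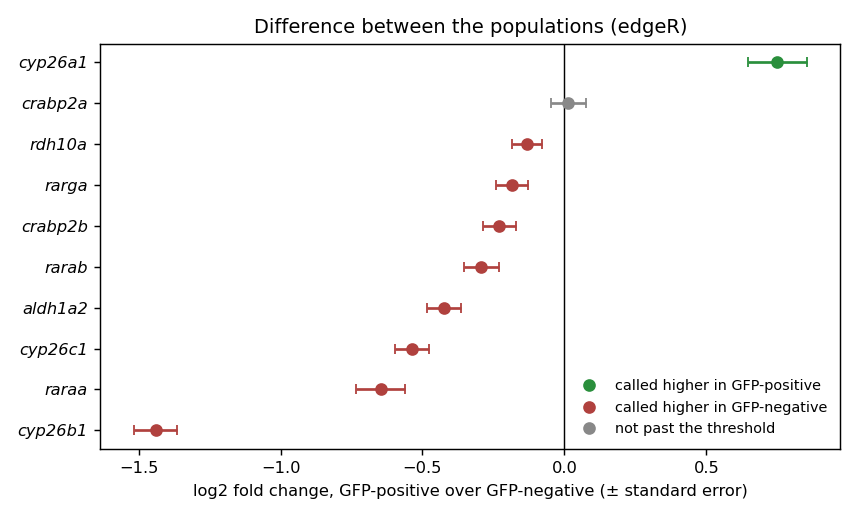
Log2 fold change, GFP-positive over GFP-negative, of each of the 10 genes from edgeR, with bars of 1 standard error and genes ordered by value. *cyp26a1* stands at 0.75, *crabp2a* at 0.01 and the other 8 between -0.13 and -1.44.

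The order of the levels, in TPM, was nearly the same in both populations apart from the *cyp26* genes. In GFP-positive cells it ran *rdh10a* (mean 91.6), *rarga* (85.3), *crabp2a* (57.7), *crabp2b* (42.7), *rarab* (38.0), *aldh1a2* (30.1), *cyp26c1* (19.7), *cyp26a1* (15.6), *raraa* (15.1) and *cyp26b1* (9.81). The neighbours whose libraries overlapped were *rdh10a* and *rarga*, *crabp2b* and *rarab*, and *cyp26a1* and *raraa*. In GFP-negative cells it ran *rdh10a* (110.5), *rarga* (95.8), *crabp2a* (62.8), *crabp2b* (54.3), *rarab* (50.5), *aldh1a2* (43.9), *cyp26b1* (32.0), *cyp26c1* (30.9), *raraa* (26.0) and *cyp26a1* (10.03), and *crabp2a* with *crabp2b* and *cyp26b1* with *cyp26c1* overlapped. *cyp26b1* was thus the lowest of the 10 in GFP-positive cells and *cyp26a1* the lowest in GFP-negative cells. Even these lowest levels exceeded those of 67.2% and 66.8% of all genes in the same population, and *rdh10a* exceeded 92.7% and 93.4%.

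Several of the genes have more than 1 annotated transcript, 23 in all, of which 17 could be tested singly in edgeR over 32736 transcripts. Of the 17, 9 passed an adjusted p below 0.05, against 34.7% of all transcripts tested. Of these, 8 were lower and 1, that of *cyp26a1*, was higher in GFP-positive cells. kallisto, the program that assigned the reads, divides reads that several transcripts share, so these values are less certain than the gene sums. For *aldh1a2*, *rdh10a*, *crabp2a*, *crabp2b*, *cyp26a1* and *cyp26c1* a single transcript carried at least 97.2% of the TPM on average over the libraries of each population.

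*cyp26b1* was divided between a transcript of 3869 nt and one of 579 nt. The longer one measured 6.56, 7.26 and 8.45 TPM in GFP-positive replicates 1, 2 and 3 and 21.3, 22.5 and 20.9 TPM in GFP-negative ones, so that GFP-negative replicate 2 no longer stood apart. The shorter one measured 2.93, 1.37 and 2.86 TPM against 7.05, 16.4 and 7.76 TPM, with replicate 2 the lowest GFP-positive and the highest GFP-negative library. Both were called lower in GFP-positive cells, at -1.40 (SE 0.073, edgeR adjusted p = 3.07e-05) and -2.03 (SE 0.461, edgeR adjusted p = 0.0139) on the log2 scale. The shorter one held 24.0% of the gene's TPM in GFP-positive and 31.4% in GFP-negative cells, from 11.6 to 132 estimated counts per library. The longer one had 892 to 2803 counts. The sums, shares, ratios and ranks of *cyp26b1* in TPM thus rest partly on few reads. In GFP-negative cells the longer one alone had a mean of 21.6 TPM, below the 30.9 TPM of *cyp26c1*.

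For each receptor gene the most abundant transcript was called lower in GFP-positive cells, and no other transcript was called. The 2492 nt transcript of *raraa* measured 13.4, 12.6 and 13.8 TPM in GFP-positive replicates and 22.7, 23.5 and 27.2 TPM in GFP-negative replicates (log2 fold change -0.75, edgeR adjusted p = 0.000943). Its 2817 nt transcript measured 1.92, 1.13 and 2.43 against 0.861, 1.93 and 1.31 TPM, with overlapping libraries (0.56, adjusted p = 0.274). The 2053 nt transcript of *rarga* measured 52.9, 51.7 and 59.6 against 67.1, 71.5 and 69.0 TPM (-0.21, adjusted p = 0.0154). Its 666 nt transcript measured 32.0, 30.4 and 28.4 against 23.4, 27.5 and 28.5 TPM, with overlapping libraries (0.28, adjusted p = 0.178). Of the 4 transcripts of *rarab* the 2555 nt one, which held 47.7% and 49.4% of the gene's TPM, passed the test (-0.33, edgeR adjusted p = 0.00886). The fold changes of the other 3, -0.33, -0.28 and -0.06, did not. The 666 nt transcript of *rarga* held 35.5% and 27.6% of its gene's TPM, from 282 to 435 estimated counts per library. The 609 nt transcript of *rarab* held 26.2% and 26.0%, from 85.6 to 146 counts. Sums, shares, ratios and ranks of these 2 genes in TPM thus also rest partly on few reads.

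**Figure D4:**
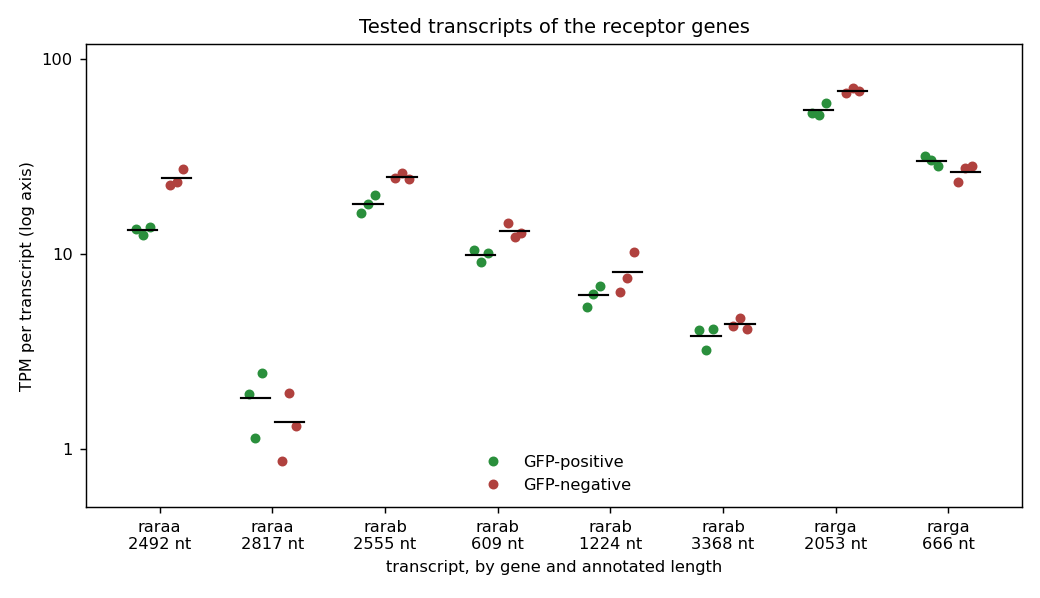
TPM of the 8 tested transcripts of *raraa*, *rarab* and *rarga*, named by gene and annotated length, on a log axis with 1 point per library and a bar at the mean of each population. The main transcripts (2492, 2555 and 2053 nt) and the 609 nt one are separated, and the points of the 2817, 1224, 3368 and 666 nt transcripts overlap between the populations.

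Other genes of the pathway were followed in 5 lists. Those for retinol transport and storage, other retinol and retinal enzymes, other binding proteins, other receptors and receptor cofactors held 58 genes found in the data, of which 52 were tested. The test called 14 of them higher in GFP-positive and 13 higher in GFP-negative cells (24.1% and 25.0% of all genes tested) and left 25 without a call, with a median log2 fold change of -0.11. Of these 52, 7 were called at least 2-fold higher in GFP-positive cells, as were 8.45% of all genes tested, and are named here. The counts of each list below are to be read beside the same 24.1% and 25.0% of all genes tested.

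Retinol transport and storage had 6 of 13 tested genes higher and 2 lower in GFP-positive cells (median 0.58). *lrata*, an acyltransferase that stores retinol as retinyl esters, measured 13.0, 11.7 and 12.5 TPM against 4.77, 3.72 and 4.81 TPM, and was higher in every GFP-positive library (log2 fold change 1.58, SE 0.149, edgeR adjusted p = 6.79e-07). Its relative *lratb.2* had a fold change of 1.02 (SE 0.170), and the plasma retinol carrier *rbp4*, at 1.47 against 0.680 TPM on average and with overlapping libraries, one of 1.2 (SE 0.444, adjusted p = 0.0344). *rbp7a*, a cellular retinol-binding protein, measured 3.64, 3.30 and 3.93 TPM against 0.395, 0 and 0.146 TPM, at a fold change of 4.33 (SE 0.526, edgeR adjusted p = 8.68e-06). The most abundant of the list was its relative *rbp7b*, at a mean of 73.9 and 93.0 TPM (-0.28, not called, adjusted p = 0.0542). *rbp5* fell by 0.55 on the log2 scale, and *stra6*, the cell surface retinol transporter, was at 56.8 against 76.0 TPM and fell by 0.27 on that scale.

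Of the other retinol and retinal enzymes, 6 of 17 tested were higher and 3 lower in GFP-positive cells (median 0.02). The alcohol dehydrogenase *adh8b* measured 31.2, 28.3 and 28.9 TPM against 18.6, 15.1 and 14.5 TPM (1.05, SE 0.101, edgeR adjusted p = 8.75e-07), and *adh5*, the most abundant, had a fold change of 0.35 at 63.4 against 53.3 TPM. *rdh10b*, the duplicate of *rdh10a*, and *aldh1a3*, a relative of *aldh1a2*, are given as well although they were picked after their values had been seen. *rdh10b* measured 24.9, 24.9 and 25.4 TPM in GFP-positive replicates and 19.3, 17.3 and 17.0 TPM in GFP-negative ones, the opposite order to *rdh10a* (0.60, SE 0.084, edgeR adjusted p = 3.22e-05). *aldh1a3* measured 16.2, 17.6 and 17.7 against 15.1, 17.1 and 15.0 TPM, with overlapping libraries (0.24, SE 0.077, edgeR adjusted p = 0.0170).

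Among 4 other binding proteins tested, 2 were higher and 1 lower in GFP-positive cells (median 0.54). This list includes fatty acid binding proteins beside those of the Crabp class, and *fabp5* was not found in the data. *crabp1b*, of the other Crabp class, measured 11.7, 13.9 and 15.1 TPM against 7.83, 5.64 and 6.66 TPM (1.1, SE 0.160, edgeR adjusted p = 4.80e-05), in contrast to *crabp2a* and *crabp2b*, neither of which was called higher. Its duplicate *crabp1a*, named after its values had been seen, did not share the increase, at a mean of 0.858 against 0.971 TPM (-0.01, edgeR adjusted p = 0.987). The fatty acid binding protein *fabp7b* had a fold change of 2.43, from a mean of 5.73 against 1.1 TPM, while its duplicate *fabp7a*, at 283.8 against 403.9 TPM, fell by 0.44 on the log2 scale. Of 6 other receptors tested, none was called higher and 2 were lower (median -0.43): *rxrba*, at 14.0 against 23.7 TPM, with -0.80, and *rxrbb*, at 10.1 against 17.3 TPM, with -0.70, the latter named after its values had been seen. *rxraa*, the most abundant of the RXR genes at 22.9 against 32.4 TPM, did not pass (-0.20, edgeR adjusted p = 0.0625).

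**Figure D5:**
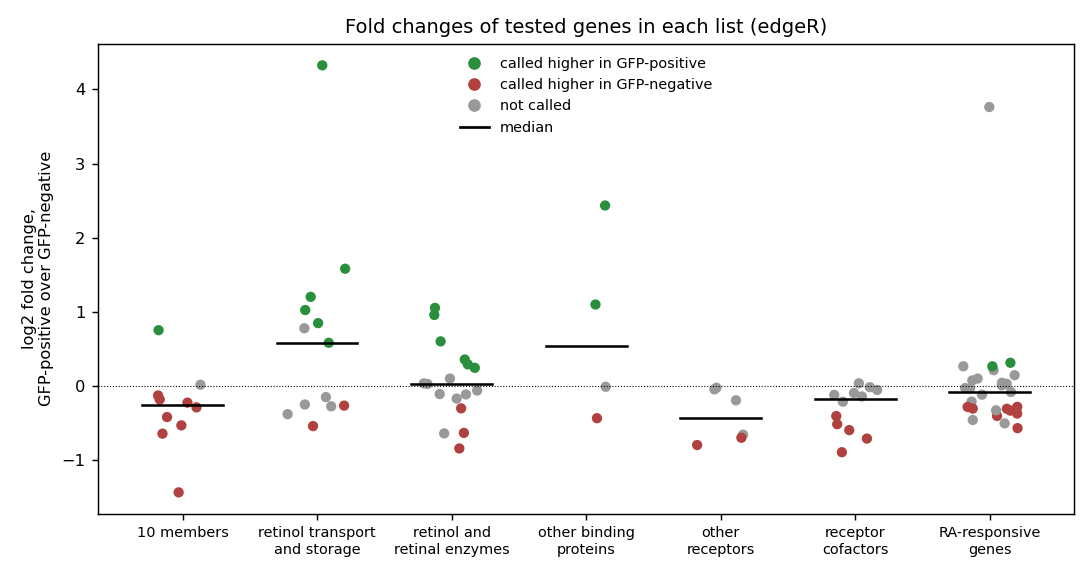
Log2 fold change, GFP-positive over GFP-negative, of every tested gene of the 10 genes and of each other list, coloured by the edgeR call, with a bar at the median of each list. The medians are -0.26 for the 10 genes, 0.58 for retinol transport and storage, -0.43 for other receptors and -0.09 and -0.18 for the responsive genes and the cofactors.

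Genes known to respond to retinoic acid in early embryos, mostly *hox* genes, were read alongside the pathway. Of 27 tested, 2 were called higher and 8 lower in GFP-positive cells, 17 were not called, and the median log2 fold change was -0.09. Over all genes tested the shares called were 24.1% and 25.0%. The largest called decreases were those of *hoxd4a* (11.1 against 18.0 TPM, -0.57, SE 0.082), *hoxb4a* (10.1 against 12.5 TPM, -0.41, SE 0.125) and *hoxd3a* (22.8 against 26.4 TPM, -0.38, SE 0.095), although the TPM libraries of *hoxd3a* overlapped. The 2 called increases were small, 0.31 for the transglutaminase gene *tgm2b* and 0.26 for *foxa2*, which is also an endoderm and floor plate marker, and in both the TPM of the populations overlapped. This count was 4 without GFP-positive replicate 3, 2 without GFP-positive replicate 1 and 1 without any other single library. The most abundant of the list were *nr2f5*, an orphan nuclear receptor, at 209.6 against 277.4 TPM (-0.29), and the caudal homeobox gene *cdx4*, at 118.6 against 127.7 TPM (0.00, edgeR adjusted p = 0.954).

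Some tissue marker lists differed in the same direction as some of the retinoic acid genes, and others were mixed. The neural plate list, which was lower in GFP-positive cells as were *cyp26b1*, *cyp26c1* and the receptors, summed to 533 to 538 against 995 to 1017 TPM, and the presomitic and somitic list, the tissue in which *aldh1a2* is best known, to 435 to 471 against 488 to 509 TPM. The latter was mixed: 3 of 9 genes were higher and 4 lower in GFP-positive cells. Its lower sum came from *tcf15*, the most abundant of the list, at a mean of 190.0 against 237.8 TPM. *tbx16* (-1.35), *msgn1* (-0.86) and *tbx6* (-0.56), known from the tailbud and presomitic mesoderm, were lower. *mespaa* (1.22) and *ripply1* (0.83), of forming somites, were higher. Of the rest, *myod1* was higher (0.25) and *tcf15* lower (-0.23), while *mespba* (0.42) and *myf5* (-0.03) were not called. The hindbrain list, the tissue named above for *cyp26b1*, was mixed as well, at 186 to 209 against 227 to 236 TPM. Of its 5 genes tested, 1 was higher and 2 were lower in GFP-positive cells. In the notochord and floor plate list 4 of 5 genes were higher in GFP-positive cells, as *cyp26a1* was, among them *tbxta* (2.05), known from both notochord and tailbud, while *noto* was at 0.04 and not called. These genes were named after their values had been seen. Other lists also had genes called only higher in GFP-positive cells: 11 of 11 for EVL, 6 of 6 for hatching gland, 3 of 5 for basal epidermis and 2 of 4 for endoderm. The part of these tissues in the results was not tested.

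The choice of measure and test bore on the small differences. On log2(TPM + 1), tested with limma, the fold change of a gene was lower than with edgeR by a median of 0.11, compared gene by gene. The share of calls that were higher in GFP-positive cells was 38.6%, against 49.1% with edgeR. The 8 decreases and the increase of *cyp26a1* were called on both scales. Estimated counts of 6 of the 10 genes were whole to within 0.01 in every library, and those of *crabp2a*, *crabp2b*, *cyp26b1* and *cyp26c1* were not, so reads shared with other genes entered their sums.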

How the data were processed

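Reads were trimmed (Trimmomatic) and assigned to the cDNA set of zebrafish build zv10 (kallisto) by the authors, whose deposited files hold 2 values per library for 51286 transcripts, estimated counts and TPM. The TPM values of the series table equalled those of the single libraries in 100% of 307716 values (relative tolerance 0.0001). The authors' own sleuth comparison (effects, p- and q-values) was not used. Estimated counts were summed by Ensembl gene, rounded, and compared between populations in R 4.3.3 by edgeR 4.0.16 (TMM, default filterByExpr, quasi-likelihood F test, Benjamini-Hochberg over 20944 genes). SE is the size of the log2 fold change over the square root of F. At these depths 3 counts are 0.0604 to 0.0739 CPM. Such a floor covers counting error only. Alternatives were RLE factors, no TMM, no count filter, DESeq2 1.42.0, limma 3.58.1 on log2(TPM + 1) and log2(TPM + 0.1), the replicate block, each library left out, single transcripts and other thresholds. Only the edgeR fit was tested on simulated counts. The study's methods describe both populations as isolated in each replicate. Deviations of same-numbered libraries from their population means correlated at -0.0103 to 0.0038, so no pairing showed in the values, and the block was kept as an alternative.

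The 10 genes and the other lists (65 pathway symbols, of which 6 were not found, the responsive genes and 11 tissue marker lists) were chosen with earlier results of these data known. The named genes were the 10, *krt4*, other pathway genes called at 2-fold or more, the 2 most abundant of each list, and of the responsive genes the 3 largest called changes in each direction and the 2 most abundant. Gene names are those of the deposited series table.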

Additional observations from a re-analysis of the deposited data

How the results depend on the processing

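Every alternative kept the direction of the 9 called retinoic acid genes, and *cyp26a1* was the only one called higher in GFP-positive cells throughout. The count called higher in GFP-negative cells was 8, and 6 to 8 with each library left out. *rdh10a* was not called without a filter on low counts (-0.13, edgeR adjusted p = 0.0564), from its most abundant transcript alone (-0.13, 0.0553), with the replicate block (-0.13, 0.0913) or at an adjusted p below 0.01 (-0.13), and its log2 fold change was -0.15 to -0.12 with each library left out, the call holding only without GFP-positive replicate 3. *rarga* was not called at an adjusted p below 0.01 (-0.19) or without GFP-positive replicate 2, and ranged from -0.20 to -0.16 with each library left out. *crabp2a*, not called in any setting, changed sign with DESeq2 (-0.00013, adjusted p = 0.999), with limma on log2(TPM + 1) (-0.12, 0.182), on log2(TPM + 0.1) (-0.12, 0.189) and on log2(TPM + 1) without a filter (-0.12, 0.199), and lay between -0.018 and 0.063 with each library left out. Of the other pathway genes, 9 in place of 14 were called higher in GFP-positive cells under the 3 limma settings and at an adjusted p below 0.01. Of the responsive genes, 0 in place of 2 were, and 1 to 4 with each library left out. The cause of these changes was not tested.

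With the replicate block 4905 genes were called higher in GFP-positive and 5073 higher in GFP-negative cells, against 5041 and 5229, and of the 10 genes only the call of *rdh10a* was lost. With 3 libraries a population, the exact permutation test of the ratios could not pass 0.05. GFP-positive replicate 3 differed more from the other GFP-positive libraries (chi-square per degree of freedom 12.0 and 20.4) than other libraries of one population did from each other (5.28 to 6.86).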

Other observations

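The receptor cofactors are corepressors and coactivators that bind nuclear receptors, and all 12 were tested. None was called higher in GFP-positive cells and 5 were called lower, against 24.1% and 25.0% of all genes tested. The other 7 were not called (median log2 fold change of the 12, -0.18). The most abundant were the corepressor *nrip1b*, at a mean of 18.2 against 25.8 TPM (0.03, edgeR adjusted p = 0.775), and the coactivator *ncoa3*, at 13.4 against 15.3 TPM (-0.06, adjusted p = 0.587). For *nrip1b*, whose TPM libraries overlapped, the fold change from counts did not show the lower level seen in mean TPM. *nrip1a*, the duplicate of *nrip1b*, was named after its values had been seen. It measured 3.56, 3.94 and 5.01 TPM in GFP-positive replicates 1, 2 and 3 and 8.47, 8.38 and 8.57 TPM in GFP-negative ones, lower in every GFP-positive library (-0.90, SE 0.097, edgeR).

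The responsive gene *tgm2a*, a transglutaminase related to *tgm2b*, had a log2 fold change of 3.76 (SE 0.678, edgeR) at 0.798, 1.00 and 0.668 TPM in GFP-positive and 0, 0.320 and 0.0930 TPM in GFP-negative replicates, and was not called because its mean was under 1 TPM. It was named after its values had been seen.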
